A study of Bos taurus with 8 samples.

Results

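Of 10 genes of the FOXO, atrophy ligase and autophagy group (FOXO1, FOXO3, FOXO4, FBXO32, TRIM63, MAP1LC3B, GABARAPL1, SQSTM1, CTSL, and BNIP3), 5 were measured here, out of 7788 genes that could be named on a bovine oligonucleotide array, by 6 of its 21475 non-control probes. A probe was taken as a member when the RefSeq symbol of the transcript it was designed on was in the group. FOXO4 was represented by 2 probes, A_73_108114 and A_73_115444. TRIM63 (A_73_111223), GABARAPL1 (A_73_107041), CTSL (A_73_113548), and BNIP3 (A_73_119688) had 1 probe each. FOXO1, FOXO3, FBXO32, MAP1LC3B, and SQSTM1 had no matched probe and were not analysed here. All 6 probes were among the 17622 probes bright enough to be tested, and each was printed on 2 spots of an array.

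FOXO proteins are transcription factors that insulin-like growth factor signaling holds outside the nucleus through phosphorylation by AKT. When that signal falls in skeletal muscle, nuclear FOXO proteins switch on ubiquitin ligases that mark muscle proteins for the proteasome, among them atrogin-1 (FBXO32) and MuRF1 (TRIM63), together with genes of autophagy. In autophagy, proteins of the LC3 and GABARAP families are attached to a growing membrane that encloses cell material, and the enclosed material is broken down by enzymes of the lysosome such as cathepsin L (CTSL).

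The cells were primary muscle cells from m. semitendinosus of Limousin (LIM) or Hereford (HER) bulls, raised for beef, and of Holstein Friesian (HF) bulls, a dairy breed that served as the control. The methods give 4 bulls per breed, all aged 15 months, and preplating that enriched the cultures for myoblasts without making them pure. The cells were untreated and were frozen while proliferating in serum-containing medium, at 80% confluence. RNA of a beef bull's culture and RNA of an HF bull's culture were hybridised together on each of 8 two-colour arrays. HER cells carried Cy3 and HF cells Cy5 on 4 arrays, and LIM cells carried Cy5 and HF cells Cy3 on the other 4 arrays, so each HF channel is the control of its own array. LIM arrays shared 1 slide and HER arrays another, and the labels do not say which HF bull was on which array. Within a comparison, breed, dye, and slide cannot be told apart, whereas a dye effect cancels in the mean of both comparisons, named here the beef effect.

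The probes well above background made up 68.8% to 85.2% of all probes in the beef channels, and no spot was saturated. Of the myoblast markers, MYF5, MYOD1, DES, and CDH15 were well above background in all 16 channels. By the rule for calls given below, 1330 of all 17622 tested probes were called higher in both beef breeds than in HF. Of the 6 tested probes of the myoblast list, 4 were, and the list's median log2 ratios were 2.02 in LIM and 1.39 in HER. Of 8 tested markers of differentiating muscle cells, 7 were called higher in both beef breeds than in HF. Their summed signal was 51291 to 105451 in LIM channels and 3717 to 10055 in the HF channels beside them, and 14268 to 96449 in HER channels against 2162 to 10284. Of 12 tested fibroblast probes, 5 were called higher and 2 lower in LIM, and 5 were called higher and 3 lower in HER. Over all tested probes the shares in the same order were 16.1%, 18.3%, 10.4%, and 14%. All 12 were well above background in all 16 channels. The part of these marker sets in the results below was not tested, and in such bulk cultures fewer cells of a type cannot be told apart from less RNA per cell.

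Values are log2 ratios of beef over HF from the scanner software, so that a log2 ratio of 1 is a 2-fold higher level in the beef breed. A probe was called when limma's Benjamini-Hochberg adjusted p, over all 17622 tested probes, was at most 0.05 and the change was at least 1.3-fold. In LIM against HF, 4 of the 6 probes were called, against 34.4% of all tested probes. The probes FOXO4 A_73_108114, GABARAPL1, and BNIP3 were higher (16.1% of all tested probes were called higher) and FOXO4 A_73_115444 was lower (18.3%). In HER against HF, 3 of the 6 were called, against 24.4% of all tested probes. These were FOXO4 A_73_108114, GABARAPL1, and CTSL, all higher in HER, the direction in which 10.4% of all tested probes were called. Of all HER calls 42.6% were higher, a share that was 55.1% with no background subtraction and loess. By the unadjusted p and fold of the methods, limma called 5 probes in LIM and 4 in HER (41.6% and 34.8% of all tested probes). With the methods' t-test after Benjamini-Hochberg adjustment 0 of the 6 were called in either comparison, against 4 in LIM and 3 in HER before adjustment. Before adjustment, that test called the same 4 probes in LIM as limma with adjusted p. In HER it called TRIM63 in place of CTSL. Over all tested probes that test called 5.69% in LIM and 0.0113% in HER after adjustment, and 28.8% and 27.4% before it. In the beef effect 5 of the 6 were called by limma, against 38.1% of all tested probes (17.7% higher and 20.4% lower), BNIP3 being the exception. Of these, FOXO4 A_73_115444 was lower and the others were higher. Both comparisons use HF cells as the control, from 4 bulls for 8 arrays, so they are not independent of each other and the beef effect's p-values treat the 8 arrays as if they were.

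**Figure D1:**
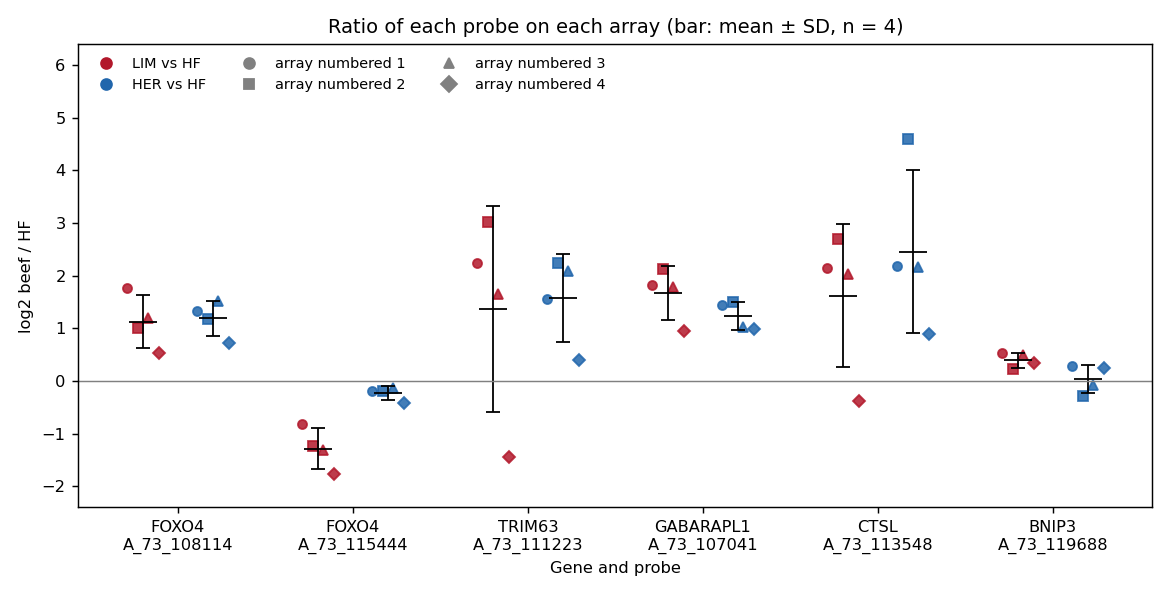
Log2 ratio of beef over HF (y axis) for the 6 probes (x axis) on each array, LIM arrays in red and HER arrays in blue, with the array number as the symbol and the mean ± SD of 4 arrays as black bars. FOXO4 A_73_108114 and GABARAPL1 lie above 0 on all 8 arrays, FOXO4 A_73_115444 lies below 0 on all 8, and TRIM63 and CTSL are lowest on the arrays numbered 4.

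FOXO4, the FOXO factor measured here, gave opposite directions with its 2 probes. With probe A_73_108114, the log2 ratio was 1.76, 1.00, 1.20, and 0.54 on LIM replicates 1 to 4 and 1.32, 1.17, 1.53, and 0.72 on HER replicates 1 to 4. All 8 arrays were above 0, a pattern that 11.7% of all tested probes had, and replicate 4 was the lowest in both comparisons. LIM had a mean of 1.12 ± 0.51 (SD, n = 4), which is 2.18-fold (limma adjusted p = 0.00397). HER had a mean of 1.19 ± 0.34 (SD, n = 4), which is 2.28-fold (limma adjusted p = 0.00700). With normexp on local backgrounds as measured, the HER mean was 0.41 and was not called (adjusted p = 0.316), in a fit that called 0% of all tested probes in HER. With outlying backgrounds replaced it was 0.92 (adjusted p = 0.00610), and that fit called 16.9%. The beef effect was 1.16, with a 95% interval of 0.83 to 1.48 (limma adjusted p = 0.000476). The scanner software's processed signal of this probe was 482 to 1098 in LIM channels and 286 to 361 in the HF channels beside them. In HER it was 405 to 596 against 176 to 245.

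With probe A_73_115444, designed on the same FOXO4 transcript record, the log2 ratio was -0.83, -1.23, -1.32, and -1.77 on LIM replicates 1 to 4 and -0.18, -0.19, -0.14, and -0.43 on HER replicates 1 to 4. All 8 arrays were below 0, as for 17% of all tested probes. In LIM the mean was -1.29 ± 0.39 (SD, n = 4), 2.44-fold lower than HF (limma adjusted p = 0.000858). In HER it was -0.23 ± 0.13 (SD, n = 4), with a limma adjusted p of 0.272. The difference between LIM and HER was -1.05 on the log2 scale, with a 95% interval of -1.53 to -0.57, an unadjusted limma p of 0.000908 and an adjusted p of 0.101.

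The signal behind this second FOXO4 probe was weak. It was 13.6 to 27.6 in LIM channels and 45.7 to 51.4 in the HF channels beside them, and 14.3 to 26.1 in HER channels against 14.8 to 29.3 in HF. It was well above background in 14 of 16 channels, and in the HER channel on 2 of 4 arrays. Its 2 spots differed on an array by 0.68 (median, log2) and by up to 2.62, and had opposite signs on 3 HER arrays, whereas the spots of FOXO4 A_73_108114 differed by 0.06 (median) and by at most 0.27. On HER replicate 4, the single spots of A_73_115444 gave 0.88 and -1.74. The size in LIM also moved with the background step: it was -0.34 with no background subtraction, -0.23 with normexp after outlying local backgrounds were replaced, and -0.16 with normexp on the backgrounds as measured (limma adjusted p between 0.0108 and 0.0278), each under 1.3-fold. The files do not say which part of the transcript each probe covers.

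**Figure D2:**
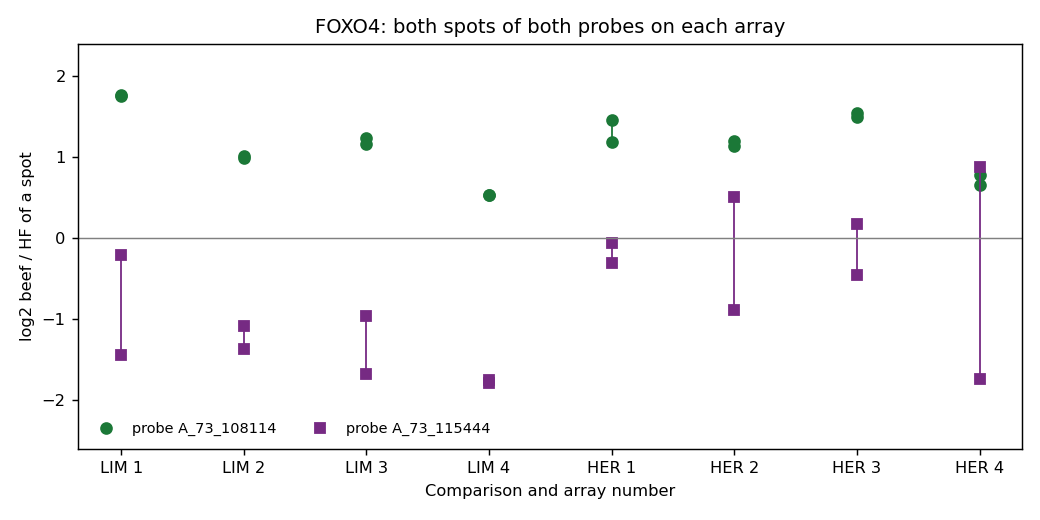
Log2 ratio of beef over HF (y axis) of each single spot of both FOXO4 probes on each array (x axis), with a line joining the 2 spots of a probe. The spots of A_73_108114 (green) lie close together and above 0 on all arrays, whereas those of A_73_115444 (purple) spread by up to 2.62 and fall on both sides of 0 on 3 HER arrays.

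Among all named probes, the patterns most like FOXO4 A_73_108114 over the 8 arrays were those of KCNE4, PRAF2, and ATP5ME, with Pearson r of 0.98, 0.97, and 0.96. For A_73_115444 they were ZNF346, TRPT1, and NLGN2, with r of 0.98, 0.98, and 0.97. For TRIM63 they were TCN2, FGF1, and CPNE8, with r of 0.98, 0.98, and 0.97. These correlations describe arrays that share HF cells and slides, and the 3 probes named for each are the highest of all named tested probes. They do not compare the size or sign of the means. ZNF346, TRPT1, and NLGN2 had means of -0.02, -0.28, and -0.06 in LIM and 0.34, 0.20, and 0.51 in HER. Those of A_73_115444 were -1.29 and -0.23. KCNE4, PRAF2, and ATP5ME had 0.90, 0.20, and 0.56 in LIM and 1.29, 0.27, and 0.56 in HER, against 1.12 and 1.19 for A_73_108114.

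TRIM63 encodes MuRF1, a ubiquitin ligase of the sarcomere. Its log2 ratio was 2.24, 3.01, 1.65, and -1.44 on LIM replicates 1 to 4 and 1.55, 2.24, 2.10, and 0.40 on HER replicates 1 to 4. The ratio was above 0 on 7 of 8 arrays, and replicate 4 was the lowest in both comparisons, turning the sign in LIM. LIM had a mean of 1.37 ± 1.95 (SD, n = 4), with a limma adjusted p of 0.126. HER had a mean of 1.57 ± 0.83 (SD, n = 4), with a limma adjusted p of 0.102 (unadjusted p = 0.0378). TRIM63 was thus called in neither comparison by the main fit. By the methods' t-test before adjustment it was called in HER but not in LIM. With a block for the replicate number it was called in both (limma adjusted p = 0.0283 in LIM and 0.0284 in HER). The beef effect was 1.47, or 2.77-fold, with a 95% interval of 0.44 to 2.50 (limma adjusted p = 0.0270). Without LIM replicate 4, TRIM63 was called in both comparisons, with means of 2.30 in LIM (adjusted p = 0.00410) and 1.57 in HER (adjusted p = 0.0125). With normexp after outlying backgrounds were replaced, the means were 0.72 and 0.87. With normexp on local backgrounds as measured, they were 0.79 in LIM and 0.29 in HER (limma adjusted p = 0.0877 and 0.650). That fit called 24% of all tested probes in LIM and 0% in HER.

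GABARAPL1, a member of the GABARAP family that is attached to autophagosome membranes, was called higher in both comparisons. Its log2 ratio was 1.82, 2.13, 1.78, and 0.94 on LIM replicates 1 to 4 and 1.44, 1.49, 1.03, and 0.99 on HER replicates 1 to 4. All 8 arrays were above 0, replicate 4 again being the lowest of each comparison. LIM had a mean of 1.67 ± 0.51 (SD, n = 4), which is 3.18-fold (limma adjusted p = 0.000850). HER had a mean of 1.24 ± 0.26 (SD, n = 4), which is 2.36-fold (limma adjusted p = 0.00529). The beef effect was 1.45, or 2.74-fold, with a 95% interval of 1.14 to 1.76 (limma adjusted p = 0.000220). The calls of GABARAPL1 and of FOXO4 A_73_108114 held in both comparisons when any of the 8 arrays was left out. Processed signals were 26146 to 44498 in LIM against 10189 to 13604 in the HF channels beside them. In HER they were 11357 to 30996 against 5548 to 11436, where the lowest HER channel lay just below the highest HF channel. With no background subtraction and with outlying backgrounds replaced, the means were 1.67 to 1.68 in LIM and 1.29 in HER. With normexp on local backgrounds as measured, the HER call was lost (mean 1.09, adjusted p = 0.165), in a fit that called 0% of all tested probes in HER.

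BNIP3, a receptor that draws mitochondria into autophagosomes, had the smallest ratios of the called members. Its log2 ratio was 0.52, 0.23, 0.49, and 0.33 on LIM replicates 1 to 4 and 0.29, -0.28, -0.08, and 0.24 on HER replicates 1 to 4. All LIM arrays were above 0, whereas the HER arrays fell on both sides of 0. In LIM the mean was 0.39 ± 0.14 (SD, n = 4), which at 1.31-fold lay just inside the fold threshold (limma adjusted p = 0.0385). In HER it was 0.04 ± 0.27 (SD, n = 4), with a limma adjusted p of 0.828. The call in LIM was lost when any LIM array was left out, with means of 0.35 to 0.45 and adjusted p of 0.0524 to 0.134, and without HER replicate 3 (adjusted p = 0.0542). The difference between LIM and HER was 0.35, with a 95% interval of -0.05 to 0.75 (limma adjusted p = 0.399).

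CTSL, a lysosomal protease, had the highest mean of the 6 probes in HER and in the beef effect, and GABARAPL1 the highest in LIM. Its log2 ratio was 2.15, 2.69, 2.02, and -0.38 on LIM replicates 1 to 4 and 2.18, 4.59, 2.17, and 0.88 on HER replicates 1 to 4. It was above 0 on 7 of 8 arrays, replicate 2 being the highest and replicate 4 the lowest in both comparisons. In HER the mean was 2.46 ± 1.55 (SD, n = 4), which is 5.49-fold (limma adjusted p = 0.0243), and 0.539% of the tested probes had a HER mean as high or higher. In LIM it was 1.62 ± 1.36 (SD, n = 4), which is 3.08-fold (limma adjusted p = 0.0731, unadjusted p = 0.0301) and was not called by the main fit. With a block for the replicate number the LIM value was called (limma adjusted p = 0.00910). The beef effect was 2.04, or 4.11-fold, with a 95% interval of 1.03 to 3.05 (limma adjusted p = 0.00592).

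The call of CTSL in HER was lost without replicate 1 (mean 2.55, adjusted p = 0.0777), replicate 2 (mean 1.75, adjusted p = 0.0889), or replicate 3 (mean 2.55, adjusted p = 0.0604). The methods' t-test before adjustment also did not call CTSL in HER. With normexp on local backgrounds as measured, the HER mean was 1.07 and was not called (adjusted p = 0.294), in a fit that called 0% of all tested probes in HER. In LIM the mean without LIM replicate 4 was 2.29 and was called (adjusted p = 0.0194).

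**Figure D3:**
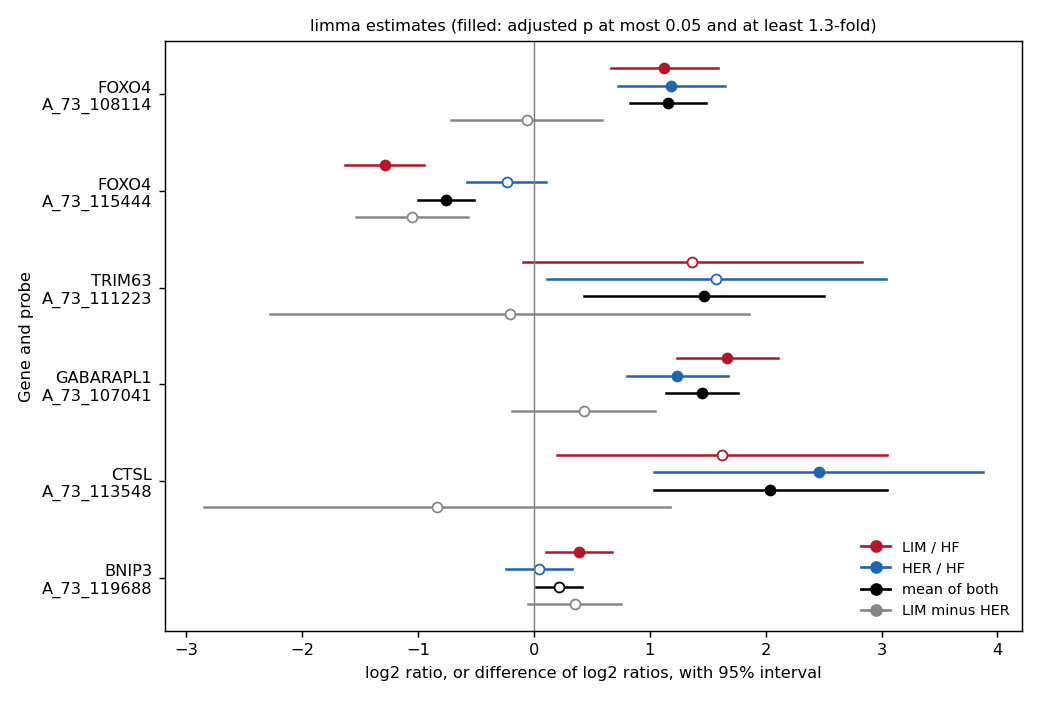
Mean log2 ratio of LIM over HF (red), HER over HF (blue), the mean of both (black), and LIM minus HER (grey) for each probe (y axis), with limma's 95% interval on the x axis, filled where the probe was called. All 6 LIM minus HER points are open, and the intervals of TRIM63 and CTSL are the widest.

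None of the 6 probes was called in the difference between LIM and HER, where 0.233% of all tested probes were called by limma with adjusted p (14.1% by unadjusted p and fold, with 1 member probe, FOXO4 A_73_115444). The difference was -0.06 for FOXO4 A_73_108114 (95% interval -0.71 to 0.59), 0.43 for GABARAPL1 (-0.19 to 1.05), -0.21 for TRIM63 (-2.27 to 1.86), and -0.84 for CTSL (-2.85 to 1.18). These intervals leave room for sizeable differences in either direction for TRIM63 and CTSL, and the contrast holds dye and slide as well as breed.

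The HF channels of TRIM63 and CTSL varied more between arrays than those of FOXO4 A_73_108114, GABARAPL1, and BNIP3. On a log2 scale of single channels, set equal in distribution across arrays, the HF level of CTSL was 8.94, 7.64, 8.99, and 10.90 on LIM replicates 1 to 4 and 8.73, 7.68, 8.92, and 10.78 on HER replicates 1 to 4. The level in the LIM channels was 11.09, 10.33, 11.02, and 10.52, and in the HER channels 10.91, 12.27, 11.09, and 11.67. The HF level was thus highest on replicate 4 and lowest on replicate 2 of both comparisons. The LIM level was also lowest on replicate 2 but highest on replicate 1, and the HER level was highest on replicate 2.

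For TRIM63 the HF level was 6.32, 5.60, 6.42, and 8.24 on LIM replicates 1 to 4 and 6.14, 5.60, 6.58, and 8.51 on HER replicates 1 to 4. The LIM level was 8.56, 8.61, 8.07, and 6.81, and the HER level 7.69, 7.84, 8.67, and 8.92. Replicate 4 had again the highest HF level in both comparisons, and in LIM it also had the lowest beef level. The SD of the HF levels was 1.13 and 1.27 for TRIM63 and 1.34 and 1.29 for CTSL, in LIM and HER arrays, against 0.15 and 0.27 for FOXO4 A_73_108114, 0.28 and 0.29 for GABARAPL1, and 0.11 and 0.07 for BNIP3.

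FOXO4 A_73_108114 and GABARAPL1 also had their highest HF level on replicate 4 of both comparisons, within their narrower range. In all, 4 of the 6 probes had their highest HF level on replicate 4 of both comparisons, a pattern present in 22.8% of all tested probes, and 0 of the 6 had their highest beef level there (6.25% of all tested probes). Marker sums of some cell types had this pattern in the HF channels, and others did not. The summed HF signal of the myoblast markers was 59528 on LIM replicate 4, where the others were 17205 to 22865, and 39497 on HER replicate 4, where the others were 11474 to 21386. That of the fibroblast markers was 231904 against 67913 to 116271 and 159000 against 58581 to 103549, and that of the smooth muscle and pericyte markers was 273317 against 101295 to 171917 and 192170 against 132511 to 186222. The HF sums of the endothelial and leukocyte markers were instead lowest on replicate 4 of LIM and HER arrays (680 and 466, and 273 and 181). Those of the differentiating muscle markers were highest on replicate 2 (10055 and 10284), and those of the adipocyte markers on replicate 1 (149788 and 111870). The part of these cell types in the levels of the members was not tested. With 4 HF bulls for 8 HF channels, the recurrence in both comparisons is not a second, separate observation.

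**Figure D4:**
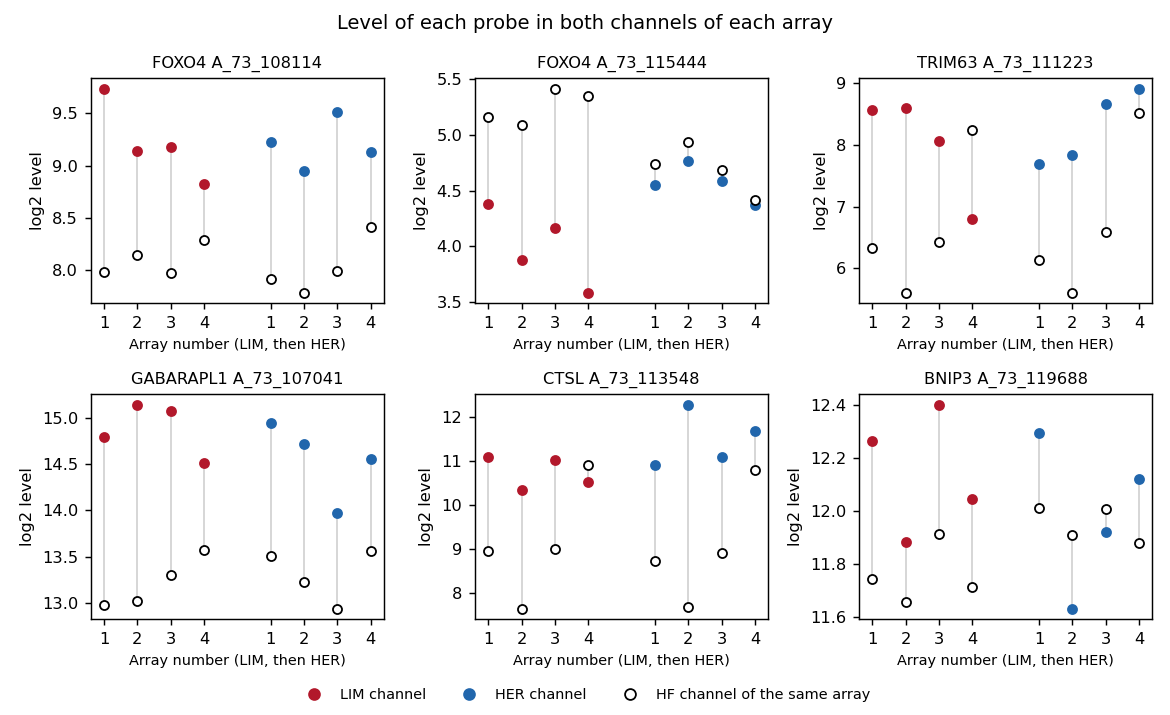
Log2 level of each probe (y axis, a separate scale in each panel) in the beef channel (filled, LIM red and HER blue) and in the HF channel (open) of each array (x axis, array numbers for LIM and then HER), with a grey line joining both channels of an array. The open points of TRIM63 and CTSL reach their highest level on the arrays numbered 4 of both comparisons, where the gap to the beef channel is smallest for CTSL and turns over in LIM.

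Leaving out replicate 4 of both comparisons, a choice made after these values were seen, brought TRIM63 to 2.30 in LIM (adjusted p = 0.00258) and 1.96 in HER (adjusted p = 0.00635), and CTSL to 2.29 in LIM (adjusted p = 0.0124) and 2.98 in HER (adjusted p = 0.00960). All 4 of these values were past the threshold, in a fit that called 39.2% of all tested probes in LIM and 31.3% in HER. BNIP3 in LIM lost its call in this fit (0.41, limma adjusted p = 0.0605). TRIM63 and CTSL had their lowest ratios on the arrays left out, so the rise of their means was built in.

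The wider pathway was described by 6 lists of 122 other genes, of which 62 had a probe, with 66 tested probes. In LIM against HF, 16 of these probes were called higher and 8 lower, and in HER 16 were higher and 4 lower. The background in the same order was 16.1% and 18.3% of all tested probes in LIM and 10.4% and 14% in HER. The median log2 ratio of the 66 probes was 0.20 in LIM and 0.14 in HER, against -0.01 and -0.06 over all tested probes.

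Lysosomal and fusion genes made up 8 of the 16 probes called higher in LIM and 9 of the 16 in HER. Of the list's 19 tested probes, 8 were higher and 2 lower in LIM, and 9 were higher and 0 lower in HER by limma with adjusted p (also 0 lower by unadjusted p and by the methods' t-test), with 7 higher in both and medians of 0.90 and 0.86. By adjusted p, 16.1% of all tested probes were higher and 18.3% lower in LIM, and 10.4% and 14% in HER. Named are the 5 highest and up to 5 lowest pathway probes called in both comparisons, and all 5 of the highest are lysosomal.

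CTSB, a cysteine protease of the same family as CTSL, was 2.54 ± 1.39 in LIM and 2.42 ± 0.81 in HER (SD, n = 4 for each here and below; limma adjusted p = 0.00530 and 0.0119). LAMP1, an abundant protein of the lysosomal membrane, was 2.46 ± 0.80 in LIM and 2.30 ± 0.64 in HER (limma adjusted p = 0.00109 and 0.00394). CTSA, a carboxypeptidase, was 2.19 ± 0.97 and 2.25 ± 0.71 (limma adjusted p = 0.00303 and 0.00631). CTSD, an aspartic protease, was 2.03 ± 0.72 and 1.70 ± 0.51 (limma adjusted p = 0.00135 and 0.00631). All 4 genes were above 0 on all 8 arrays, with 3.24-fold to 5.82-fold higher means in the beef breeds.

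LIPA, which cleaves cholesteryl esters and triglycerides in the lysosome, was 1.95 ± 0.40 in LIM and 1.81 ± 0.96 in HER with probe A_73_121019 (limma adjusted p = 0.00284 and 0.00789), also above 0 on all 8 arrays. Like FOXO4, it had a second probe of the opposite sign: A_73_115795 was -0.50 in LIM (limma adjusted p = 0.0157, called lower) and -0.17 in HER (limma adjusted p = 0.333). The other lysosomal probe called lower in LIM was MITF, at -0.46 (limma adjusted p = 0.0230).

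As for CTSL, 13 of the 19 lysosomal probes had their highest HF level on replicate 4 of both comparisons (22.8% of all tested probes). CTSB was 0.46 on LIM replicate 4, where its other LIM arrays gave 3.07 to 3.32. It was 1.25 on HER replicate 4, where its other HER arrays gave 2.55 to 3.01. Without replicate 4 of both comparisons, 12 of the 19 were called higher in LIM and 11 in HER, as were 18.3% and 13.4% of all tested probes. That omission was chosen after the values were seen. Since 13 of the 19 had their highest HF level on the arrays left out, more calls were in part built in. Without HER replicate 1 the count in HER was 4 (3.85% of all tested probes), and without HER replicate 2 it was 5 (3.55%). On the log2 scale, the summed beef over HF ratio of the fibroblast markers was 0.66 on LIM replicate 4 and 2.02 to 3.35 on the others, and 0.83 on HER replicate 4, where the rest gave 2.41 to 2.79. The median over the 12 fibroblast probes was 0.37 on HER replicate 4 and 0.39 on HER replicate 2. The summed ratio of the myoblast markers was 0.98 on LIM replicate 4 against 1.44 to 1.99, and 0.63 on HER replicate 4 against 1.37 to 2.25. That of the smooth muscle and pericyte markers was -0.34 against 0.98 to 2.14 and 0.81 against 1.04 to 1.49. The part of these cell types in the lysosomal values was not tested. The summed ratio of the differentiating muscle markers was 3.62 on LIM replicate 4 and 3.68 on HER replicate 4, within or above the range of the other arrays (2.37 to 4.04 and 2.72 to 3.23).

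In the core autophagy machinery, of 19 tested probes 1 was called higher and 2 lower in LIM. In HER 2 were called higher and 2 lower. Of all tested probes 16.1% were called higher and 18.3% lower in LIM, and 10.4% and 14% in HER. The list's medians were 0.09 in LIM and 0.05 in HER. The pathway probes called lower in both comparisons were ATG14, WIPI2, and PDK4. ATG14, which directs the lipid kinase that starts autophagosome formation, was -0.99 ± 0.35 in LIM and -1.07 ± 0.39 in HER (limma adjusted p = 0.00407 and 0.00653). WIPI2, which binds the lipid that this kinase makes, was -1.28 ± 0.48 and -0.68 ± 0.30 (limma adjusted p = 0.00177 and 0.0335). Both were below 0 on all 8 arrays.

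Among the relatives of GABARAPL1, GABARAP was 0.61 ± 0.62 in LIM (limma adjusted p = 0.0759) and 0.96 ± 0.40 in HER (limma adjusted p = 0.0225, called). GABARAPL2 was 0.33 ± 0.39 in LIM (limma adjusted p = 0.183) and 0.59 ± 0.37 in HER (limma adjusted p = 0.0456, called). These relatives, and the pathway genes named below other than PDK4 and BNIP3, were named after their values were seen.

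Of 5 tested probes of other known FOXO targets, 3 were called higher and 1 lower in LIM, and 2 were called higher and 1 lower in HER. The background in the same order was 16.1%, 18.3%, 10.4%, and 14% of all tested probes. GADD45A, a stress-response gene, was 1.72 ± 0.56 in LIM and 1.70 ± 0.48 in HER (limma adjusted p = 0.00138 and 0.00400). CAT, which encodes catalase, was 1.03 ± 0.54 and 1.47 ± 0.54 (limma adjusted p = 0.0128 and 0.00644). PDK4, a kinase that restrains the use of pyruvate, was -0.83 ± 0.14 and -0.68 ± 0.17 (limma adjusted p = 0.00111 and 0.00584), below 0 on all 8 arrays. DDIT4, an inhibitor of mTOR signaling, was 1.04 ± 0.89 in LIM (limma adjusted p = 0.0393) and 0.04 ± 0.59 in HER (limma adjusted p = 0.932).

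Among 8 tested probes of other atrophy-related ubiquitin ligases and ubiquitin, 1 was called higher and 1 lower in LIM. In HER 2 were called higher and 1 lower. For this list and those below, the background was 16.1% higher and 18.3% lower in LIM, and 10.4% and 14% in HER. ASB2, the substrate receptor of a ubiquitin ligase that acts on filamins, was called higher in both comparisons. It was 1.10 ± 0.52 in LIM and 1.04 ± 0.37 in HER (limma adjusted p = 0.00492 and 0.0115). Among 7 tested probes of autophagy receptors, 1 was called higher and 2 lower in LIM. In HER 1 was called higher and 0 lower by limma with adjusted p (1 lower by unadjusted p). The probe called higher in both was BNIP3L, the relative of BNIP3. It was 1.06 ± 0.44 in LIM and 0.81 ± 0.14 in HER (limma adjusted p = 0.00207 and 0.0114). BNIP3L was above 0 on all 8 arrays, whereas BNIP3 was above 0 on 6. The insulin and AKT arm acts on FOXO proteins by phosphorylation that an array does not measure. Of its 8 probes, 2 were called higher in LIM (RHEB at 0.40 and RICTOR at 0.67). In HER 0 of 8 were called by limma with adjusted p (2 by unadjusted p and 0 by the methods' t-test).

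**Figure D5:**
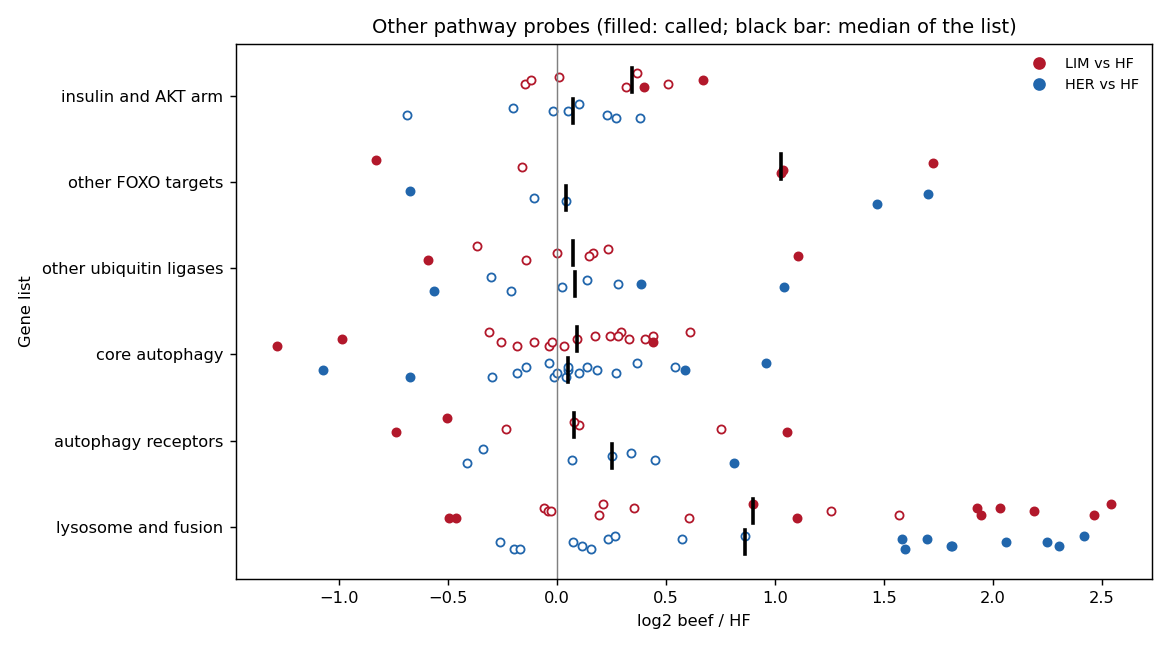
Log2 ratio of beef over HF (x axis) of each tested probe of the 6 pathway lists (y axis), LIM in red and HER in blue, filled where called, with the median of a list as a black bar. The lysosomal list reaches the highest ratios, with medians of 0.90 in LIM and 0.86 in HER, whereas the medians of the core autophagy list are 0.09 and 0.05.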

How the data were processed

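The authors deposited, for each of 8 arrays, a file from Feature Extraction 10.7.3.1 that holds median spot and local background intensity, processed signals, marks for outlying spots, and a log10 ratio of red (Cy5) over green (Cy3) that the software had corrected for background and dye. A deposited series-wide table repeats this log10 ratio for 44407 spots. The genome build named in the files is Btau_3.1, whereas symbols came through RefSeq accessions from a table on ARS-UCD2.0, so no coordinates are given. A symbol was found for 7793 of 20693 accessions, which named 8297 probes.

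Log10 ratios were turned to log2 beef over HF with the sign reversed where the beef breed carried Cy3, and spots of a probe were averaged without control and outlier-marked spots. The 17622 probes that rose well above background in 4 or more of 16 channels were fitted together with limma 3.58.1 in R 4.3.3 (lmFit and eBayes), each comparison having its own mean. Single-channel log2 levels are processed signals with average intensities quantile-normalized across arrays (Aquantile), a step added after the data were seen. Depth has no counterpart on arrays, and their number, 4 per comparison, limits the precision. The methods named a t-test at p of at most 0.05 and 1.3-fold. The design expected mean spot intensities; the files hold medians, used for the normexp alternatives (offset 50).

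The members and gene lists were chosen with earlier results of these data known. A fixed rule named all 6 member probes. It also named the 5 highest and up to 5 lowest pathway probes called in both comparisons in 1 direction. The 3 probes most like each FOXO4 probe and TRIM63 completed it. The other pathway genes in the text, and the second LIPA probe, were named after their values were seen. Besides the lists in the text, markers of smooth muscle cells and pericytes (4 tested probes, 1 called higher in LIM and 2 in HER), adipocytes (5 tested, 1 higher and 1 lower in each), endothelial cells (5 tested, 0 called in LIM and 1 lower in HER by limma), and leukocytes (3 tested, 1 higher in each) were counted. The shares over all tested probes were 16.1% higher and 18.3% lower in LIM, and 10.4% and 14% in HER. On simulated data with 17620 probes, a simulated log2 change of 1 was called in 71% of the changed probes in LIM and 69% in HER, and a change of 2 in 89% and 88%. Of the unchanged simulated probes 0.0402% were called in LIM and 0.0459% in HER. These shares depend on the simulated spread and number of changed probes, and need not hold for the member probes. Alternatives covered background correction, centring, the filter on dim probes, outlier-marked spots, the test, the call rule, a block for the replicate number, and omission of each array.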

Additional observations from a re-analysis of the deposited data

Results flagged for a closer look

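The log2 ratio of FOXO4 probe A_73_115444 was set apart on 1 HER array. HER replicate 4 gave -0.43, and the other 3 gave -0.14 to -0.19, so that the gap to the nearest array made up 0.830 of the range of the 4 arrays, just over Dixon's 95% critical value. The 2 spots on that array gave 0.88 and -1.74. Of 36 sets of 4 values examined for the members (ratios and single-channel levels), this was the only 1 past the critical value, and chance alone passes it in about 5% of sets.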

How the results depend on the processing

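With 4 arrays per comparison, single arrays decided several calls. Normexp and loess on local backgrounds as measured called 0 members in HER, 3 in the beef effect, and 0 of the 66 pathway probes in HER, and turned FOXO4 A_73_115444 in HER to 0.0011. With outlying backgrounds replaced, 3 members were called in HER. Over all probes, 6056 were called in LIM and 4302 in HER, against 4234 and 0 with normexp on backgrounds as measured (3289 in place of 6722 in the beef effect), 1003 and 2 with the methods' t-test adjusted, and 1576, 1527, and 2667 in HER without HER replicates 1, 2, and 3. LIM without LIM replicate 3 gave 3796. The difference between LIM and HER had 41 calls, 0 to 76 with other backgrounds, filters, centring or arrays left out, and 2133 to 2480 with unadjusted p.

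The methods' t-test after adjustment called 0 members in LIM and 0 in HER, and 3 and 0 pathway probes. Unadjusted p, by limma or by the methods' t-test, called 1 member in the difference between LIM and HER. With arrays left out in turn, members called were 3 to 5 in LIM, 2 to 4 in HER, and 4 to 5 in the beef effect, and pathway probes called were 15 to 30 in LIM and 9 to 24 in HER. BNIP3 in HER ran from -0.041 to 0.15, and was -0.026 without both arrays numbered 4.

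Replicate numbers are in the labels, but nothing there ties them to shared bulls or days. Deviations of same-numbered LIM and HER ratios correlated at -0.24, 0.13, 0.30, and 0.54, so the main fit did not take the numbers as pairs. These ratios carry the beef channels as well as the HF channels. The HF channels alone correlated at 0.57 to 0.78 between same numbers and at -0.36 to 0.02 otherwise, each highest with its own number, whereas the beef channels gave -0.56 to 0.11 between same numbers. With the replicate block, 6 members were called in LIM and 4 in HER (36.1% and 24.4% of all probes), adding TRIM63 in both (adjusted p = 0.0283 and 0.0284) and CTSL in LIM (adjusted p = 0.00910), with 5 in the beef effect and 0 in the difference.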
